A study of Mus musculus with 6 samples.

Results

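The genes described here are the Wnt ligands, their receptors, secreted agonists and inhibitors, the Axin scaffolds, the Tcf/Lef factors and the Wnt carrier Wls. They were chosen by symbol, from the stems Wnt, Fzd, Sfrp, Dkk, Rspo, Axin and Tcf7, with Wls, Lrp5, Lrp6, Porcn and Lef1 added by name. Of 18193 genes tested, 52 met this rule. They comprise 2 genes of Wnt secretion, 19 Wnt ligands, 10 Frizzled receptors, 2 Lrp coreceptors, 4 R-spondins, 4 secreted Frizzled-related proteins, 5 Dickkopf genes, 2 Axin genes, 3 Tcf/Lef genes and Fzd10os, a transcript from the strand opposite Fzd10. Tcf7 itself was not analysed here.

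Wnt proteins are secreted signals that carry a lipid, which the enzyme Porcn attaches and which Wls needs to carry them to the cell surface. At the receiving cell they bind Frizzled receptors, with Lrp5 or Lrp6 in the branch that protects beta-catenin from the Axin scaffold and lets it act with Tcf/Lef factors on DNA. Other branches act on the cytoskeleton and on planar polarity. In the lens, Wnt signalling is known for its part in the epithelium and in the alignment of fiber cells.

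Whole lenses were taken 2 days after birth from Balb/c mice, and their RNA was read on 1 Affymetrix array a sample: 3 transgenic (T1 to T3) and 3 wild-type (W1 to W3). The labels name neither the transgene nor its promoter. They count 12 lenses per genotype without saying whether each replicate had its own animals, so a p-value here reflects variation among 6 samples that could be technical. All 11 lens fiber markers measured lay above the median of all probe sets. By the test defined below, 3 of the 11 (27.3%) were called lower in transgenic lenses, against 2.61% of all genes. For 5 of the 11 the groups overlapped. Foxe3, a lens epithelial transcription factor, stood at 13.33, 13.42 and 13.39 in T1 to T3 and at 8.54, 8.86 and 8.82 in W1 to W3 (log2 value). Of 10 lens epithelium markers it was the only 1 called (10%, against 1.93% of all genes called higher). In difference, 7 of these 10 were above 0 and 3 below.

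Values are log2 intensities after quantile normalization, on which a difference of 1 is a doubling. A gene is called where limma's adjusted p, taken over all genes, is under 0.05. The median of all probe sets, 5.34, is used below as a rough mark of a dim signal, and 36 of the 52 genes had a mean at or above it. In bulk tissue, fewer cells of a type and less RNA per cell cannot be told apart. One array, T3, also carried transcripts of surface epithelium, muscle and connective tissue: the summed linear level of 14 skin and cornea markers was 31530 in T3, against 1880 to 2099 in T1 and T2 and 1866 to 2992 in wild-type arrays, with 2 of the 14 under the median of all probe sets on every array. The sum of 14 muscle markers was 7641 in T3 and 667 to 964 elsewhere, with 4 under that median on every array. T2 stood apart in another way: 10 markers of retinal pigment epithelium and iris summed to 5232 there and to 1809 to 2721 in the other arrays, with 2 under that median on every array.

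Transgenic and wild-type arrays were compared gene by gene. Wls was higher in transgenic lenses by a factor of 2.44, and stood apart from the rest in size. The inhibitor gene Sfrp4 was also higher and the agonist gene Rspo4 lower, both by small steps at dim signal. No Wnt ligand, Frizzled, coreceptor, Dickkopf, Axin or Tcf/Lef gene passed the test as reported, though Wnt2, Axin1 and Dkk3 did in some of the alternative settings.

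In counts, 2 of the 52 genes were called higher and 1 lower, with 49 not called. Over all genes, 1.93% were called higher and 2.61% lower, which makes 4.55% in all. The share among the Wnt genes, 5.77%, lay near that background. The arrays of the groups did not overlap for 14 of the 52 (26.9%), 8 of them higher and 6 lower, against 28.8% of all genes. An unadjusted p under 0.05 was found for 9 (17.3%), against 22.4% of all genes. The median difference was 0.020 among the Wnt genes and 0.011 over all genes, and the median size of a difference was 0.12 and 0.14.

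**Figure D1:**
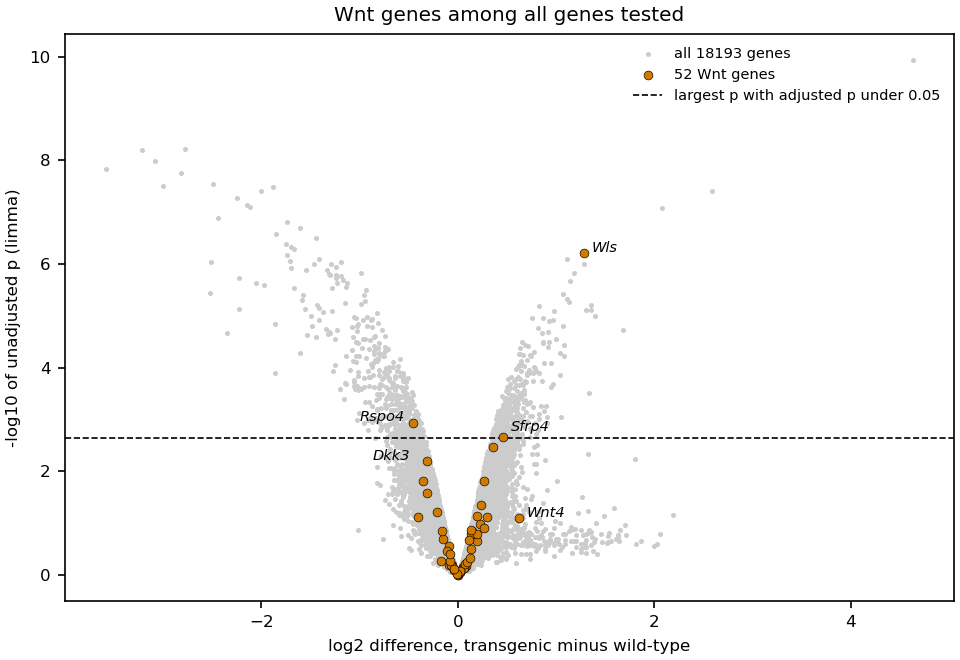
Each point is a gene, placed by its log2 difference (transgenic minus wild-type) and by -log10 of its unadjusted p in limma. Grey points are all 18193 genes and orange points the 52 Wnt genes; Wls lies far above the dashed line of the adjusted threshold, Rspo4 and Sfrp4 lie close to it, and the other 49 lie under it.

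Wls encodes the membrane protein that carries lipid-bearing Wnt proteins from the Golgi to the cell surface. Its probe set with the highest mean, 1437434_a_at, read 10.51, 10.31 and 10.38 in T1 to T3 and 9.07, 9.09 and 9.17 in W1 to W3. Every transgenic array lay above every wild-type array, and the gap between the groups was far wider than the spread within either. The means were 10.40 ± 0.10 and 9.11 ± 0.06 (SD, n = 3), a difference of 1.29 ± 0.09 (SE; 95% interval 1.08 to 1.49; limma adjusted p = 4.67e-04).

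Probe sets for other stretches of the Wls transcript gave similar differences. Tested with each of the 45037 probe sets on its own, 6 of the 102 of the Wnt genes were called, beside 3.68% of all probe sets, and 3 of the 6 were of Wls. Rspo4 was among the 6 and Sfrp4 was not (adjusted p = 0.0503). Of the Wls probe sets, 1423824_at differed by 1.32 ± 0.13 (SE; limma adjusted p = 0.00187) and 1423825_at by 1.18 ± 0.10 (adjusted p = 9.69e-04). A dim probe set, 1458319_at, had means of 3.40 (transgenic) and 3.21 (wild-type), under the median of all probe sets, and was not called. Wls kept its call whichever array was left out, with differences from 1.23 to 1.33, and was 1.30 higher without T3. Averaging all 4 probe sets, the dim one included, gave 0.99.

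**Figure D2:**
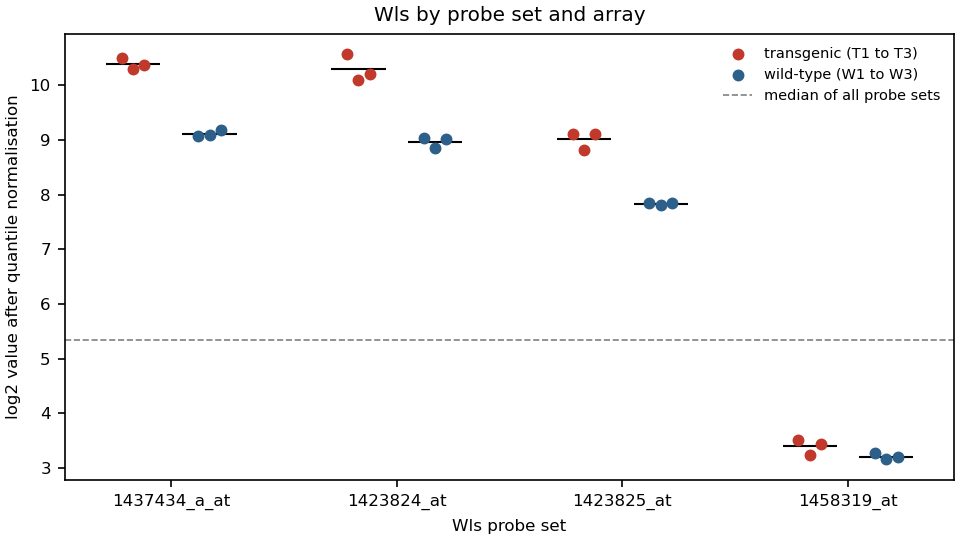
Log2 values of the 4 Wls probe sets in 3 transgenic (red) and 3 wild-type (blue) arrays, with group means as black bars and the median of all probe sets, 5.34, as a dashed line. In the 3 brighter probe sets the transgenic arrays lie above all wild-type arrays, by 1.29, 1.32 and 1.18 between the means; the dim one lies under the dashed line.

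Porcn, the enzyme that attaches the lipid to Wnt proteins, was not called. It read 6.67, 6.84 and 6.29 in T1 to T3 and 6.56, 6.63 and 6.72 in W1 to W3, with overlapping groups. Its difference was -0.041 (95% interval -0.37 to 0.29), so the interval leaves out a rise of the size seen for Wls.

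For the called genes, the bases before the start are shown where RefSeq's promoter table of GRCm38.p6 held them, since a reader may wish to look for binding motifs there. The table had windows for 33 of the 52 genes, and Sfrp4 had no entry. Each window holds the 250 bases before an annotated start, 5′ to 3′ on the gene's strand. The searched letters were CTTTGA or TCAAAG, a core of Tcf/Lef motifs on either strand, and TGTTTA or TAAACA, a core of forkhead motifs, and matches are in capitals. The windows are chr3:159839400-159839649 (plus strand) for Wls and chr2:151842677-151842926 (plus strand) for Rspo4.
Wls: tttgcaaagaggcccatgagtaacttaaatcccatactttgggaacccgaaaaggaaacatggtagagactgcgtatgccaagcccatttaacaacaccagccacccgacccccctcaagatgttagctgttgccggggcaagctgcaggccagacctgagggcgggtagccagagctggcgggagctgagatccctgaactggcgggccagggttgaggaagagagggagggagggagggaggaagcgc
Rspo4: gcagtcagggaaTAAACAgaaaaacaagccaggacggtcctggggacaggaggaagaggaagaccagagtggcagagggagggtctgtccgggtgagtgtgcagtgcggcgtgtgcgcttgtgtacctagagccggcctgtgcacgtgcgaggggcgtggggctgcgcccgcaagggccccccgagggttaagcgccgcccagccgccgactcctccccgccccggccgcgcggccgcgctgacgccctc

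The Wls window held neither core, and the Rspo4 window held 1 forkhead core that begins 238 bases before the start. Among all 40 windows of the Wnt genes, 5 held the Tcf/Lef core (12.5%) and 2 the forkhead core (5%). Of 32851 windows of the whole table, 13.8% and 12% did. A match is a stretch of letters, with no binding measured here.

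The Wnt ligands are the signals that Wls carries. None of the 19 was called and 2 had an unadjusted p under 0.05 (limma), beside 4.55% and 22.4% of all genes. The median difference of the 19 was 0.070. Their differences ran from -0.31 for Wnt2b to 0.62 for Wnt4. The level reached the median of all probe sets for 12 of them.

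Wnt7b and Wnt7a are ligands known from surface epithelia. Wnt7b read 10.53, 10.37 and 10.23 in T1 to T3 and 9.88, 10.40 and 10.47 in W1 to W3. Wnt7a read 9.31, 9.17 and 9.08, and 8.70, 9.30 and 9.26. In both genes W1 was the lowest array, and the other wild-type arrays lay within or next to the range of the transgenic ones. Their differences were 0.13 (95% interval -0.26 to 0.51) and 0.097 (-0.28 to 0.48), and without W1 they were -0.060 and -0.095.

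Further probe sets of these ligands went other ways. A second probe set of Wnt7a, 1447647_at, read 6.63, 6.79 and 6.67 in T1 to T3 and 6.05, 6.27 and 6.31 in W1 to W3. The groups did not overlap there, and it was 0.49 ± 0.10 higher (SE; limma adjusted p = 0.0370 over all probe sets), while the dim 1458334_at differed by 0.016. A second probe set of Wnt7b, 1420891_at, differed by -0.29 and was not called (adjusted p = 0.160). For both genes the difference varied with the probe set read.

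Wnt4 and Wnt5a often act through branches that do not use beta-catenin. Wnt4 read 5.46, 5.62 and 6.77 in T1 to T3 and 5.41, 5.38 and 5.20 in W1 to W3. The groups did not overlap, but most of the gap came from T3: the difference was 0.62 ± 0.31 (SE; adjusted p = 0.283) with all arrays and 0.21 without T3. Wnt5a read 6.47, 6.32 and 6.92, and 6.32, 6.22 and 6.38, again with T3 on top. It differed by 0.26, and by 0.089 without T3. A second probe set of Wnt5a above the median of all probe sets, 1436791_at, read 5.61, 5.41 and 5.63, and 5.82, 4.72 and 5.28. There W1 was highest, T3 was close to T1, and the difference was 0.28. Fibroblast and skin markers were high in T3, and their part in the values of Wnt4 and Wnt5a was not tested.

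Wnt2 and Wnt2b, close relatives, differed in opposite directions at dim signal. Wnt2 read 4.77, 4.64 and 4.58 in transgenic and 4.25, 4.35 and 4.33 in wild-type arrays. Wnt2b read 4.79, 4.69 and 4.62, and 5.004, 5.20 and 4.82. Neither pair of groups overlapped, and neither gene was called, at 0.36 ± 0.09 (SE; limma adjusted p = 0.0615) and -0.31 ± 0.11 (adjusted p = 0.160). Wnt2 was called with array weights (adjusted p = 0.042) and with the mean of probe sets (0.0486), with adjusted p up to 0.138 in the other settings that kept all arrays. Each has a single probe set under the median of all probe sets, where background limits what a difference can show.

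The other ligands with a level at or above that median were Wnt3a (-0.010), Wnt5b (-0.034), Wnt6 (0.12), Wnt9a (-0.16), Wnt9b (0.14), Wnt10a (0.30), Wnt11 (0.20) and Wnt16 (-0.11), as log2 differences. Their adjusted p ran from 0.269 for Wnt11 to 0.972 for Wnt3a. The groups did not overlap for Wnt6 and Wnt9b, with small differences, and neither was called. A dim second probe set of Wnt6, 1435980_x_at, differed by -0.44, with groups apart the other way (limma adjusted p = 0.0956 over all probe sets), and the mean of both gave -0.16. The remaining dim ligands, Wnt1, Wnt3, Wnt8a, Wnt8b and Wnt10b, differed by -0.15 to 0.070.

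**Figure D3:**
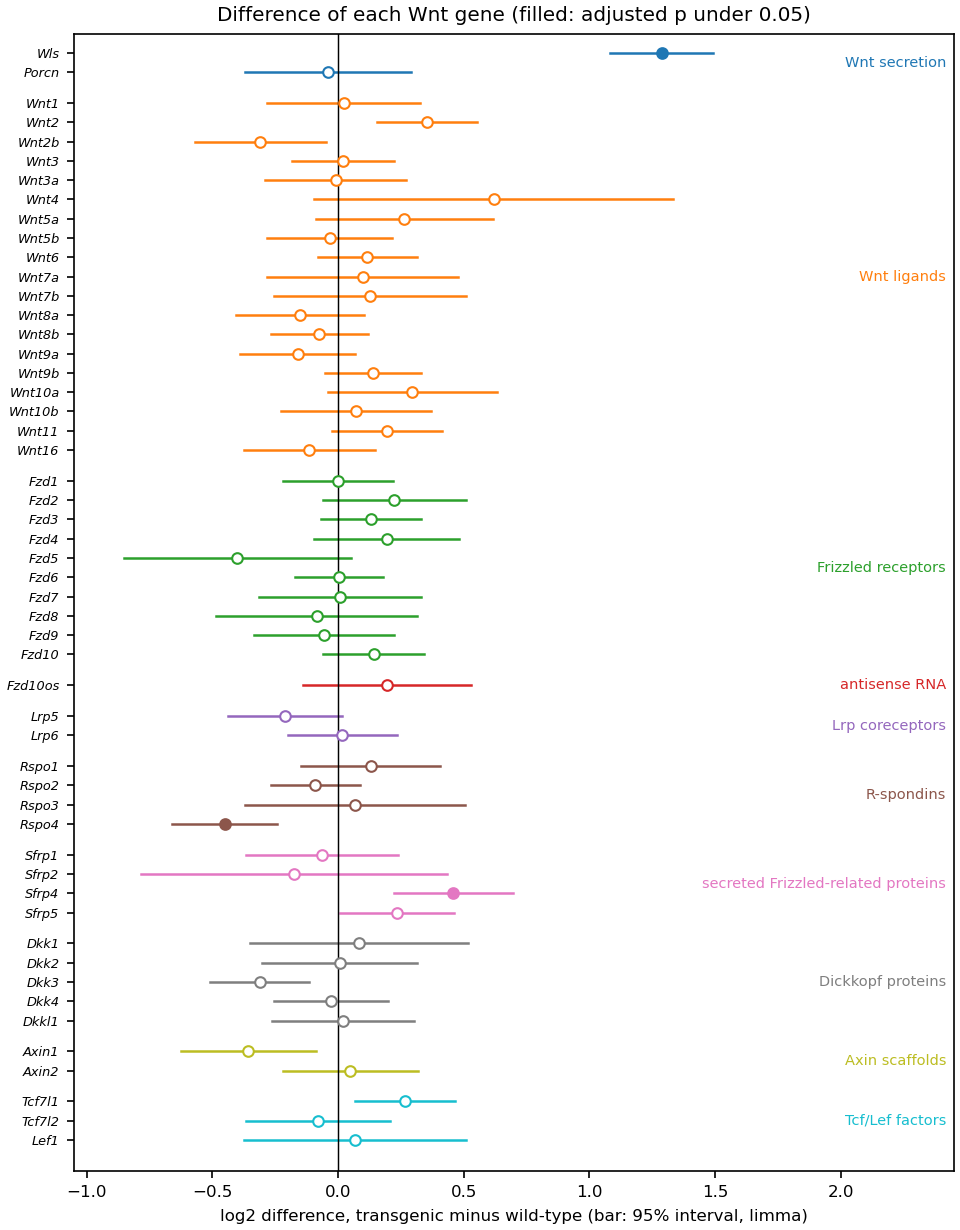
Log2 difference (transgenic minus wild-type) of each of the 52 genes with its 95% interval from limma, grouped and coloured by role; filled points have an adjusted p under 0.05. Wls stands at 1.29, Sfrp4 at 0.46 and Rspo4 at -0.45, while most other intervals span 0.

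The Frizzled receptors bind Wnt proteins at the cell surface. All 10 reached the median of all probe sets, and none was called or had an unadjusted p under 0.05 (limma). The arrays of the groups overlapped for each of the 10. Over all genes, 4.55% were called, 22.4% had an unadjusted p under 0.05 (limma) and 28.8% had groups that did not overlap. A set of 10 genes is small for a comparison with these shares. The median difference of the 10 was 0.0042, with a range from -0.40 for Fzd5 to 0.22 for Fzd2.

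Fzd6, a receptor known for tissue polarity, had the narrowest range over the arrays among the 52 genes, in the probe set used for it and after quantile normalization. It read 8.75, 8.72 and 8.78 in T1 to T3 and 8.75, 8.72 and 8.77 in W1 to W3. All 6 arrays lay within 0.057 of each other, and the 95% interval of the difference was -0.17 to 0.18. The difference was -0.079 on the values as deposited and -0.12 after centring on a common median. Its further probe sets differed by -0.14 and, at dim signal with groups apart, by 0.32, and neither was called. Fzd1 differed by -0.00012 (-0.22 to 0.22), Fzd7 by 0.0066 (-0.32 to 0.33), and Fzd3, another polarity receptor, by 0.13 (-0.067 to 0.33). The difference found for Wls lies outside each of these intervals.

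Fzd5 is a receptor known from the developing retina. It read 7.54, 8.17 and 8.15 in T1 to T3 and 8.59, 8.37 and 8.10 in W1 to W3. T1 stood far below the other 5 arrays, and without it the difference of -0.40 (95% interval -0.85 to 0.050) came to -0.19. Neural retina markers were also lowest in T1 and highest in W1, each for 13 of 16 genes. Their summed linear level was 2810 to 4643 in transgenic and 3851 to 5887 in wild-type arrays, and all 16 were below 0 in difference. By limma, 2 of the 16 were called lower and 8 had an unadjusted p under 0.05, beside 2.61% and 22.4% of all genes. The part of these markers in the values of Fzd5 was not tested.

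Of the further receptors, Fzd2 (0.22), Fzd4 (0.19), Fzd8 (-0.085), Fzd9 (-0.058) and Fzd10 (0.14) had adjusted p from 0.325 to 0.813. Fzd10os differed by 0.19, with T3 highest. Second probe sets did not always follow. For Fzd2, 1418533_s_at and 1418534_at, both above the median, differed by -0.052 and -0.066, and the mean of its probe sets gave 0.035. For Fzd1, 1422985_at read 7.11, 6.48 and 7.05, and 7.32, 7.37 and 7.75, a difference of -0.60 that was not called (limma adjusted p = 0.111 over all probe sets). For Fzd3, 3 further probe sets at or above the median differed by -0.30, -0.22 and -0.15, opposite in sign to the one used for the gene. For Fzd10, a dim probe set, 1440182_at, was lower by -0.49 and was called (adjusted p = 0.0219), while the one used for the gene was not.

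Lrp6, a coreceptor, read 7.87, 7.87 and 7.85 in T1 to T3 and 7.70, 7.88 and 7.97 in W1 to W3. Its difference was 0.017 (95% interval -0.20 to 0.23). A second probe set of Lrp6, 1451022_at, read 6.15, 6.13 and 6.12, and 6.27, 6.36 and 6.27. The groups did not overlap there, and the difference of -0.17 was not called (limma adjusted p = 0.284 over all probe sets). Lrp5, under the median of all probe sets, read 5.04, 5.06 and 4.86, and 5.20, 5.09 and 5.31. Its groups did not overlap, and its difference of -0.21 was not called (adjusted p = 0.250).

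R-spondins are secreted agonists that keep Frizzled receptors at the surface. Rspo4 was the single gene called lower. It read 4.58, 4.37 and 4.38 in T1 to T3 and 4.87, 4.86 and 4.95 in W1 to W3, without overlap. The difference was -0.45 ± 0.09 (SE; limma adjusted p = 0.0358), from a single probe set under the median of all probe sets in both groups. The call was lost without T2, T3, W1, W2 or W3 (adjusted p up to 0.130).

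Rspo1 was the R-spondin with a level above that median. It read 9.66, 9.48 and 9.45 in T1 to T3 and 9.18, 9.46 and 9.57 in W1 to W3, with overlapping groups. Its difference was 0.13 (95% interval -0.15 to 0.41). Rspo2 and Rspo3, both dim, differed by -0.090 and 0.067.

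Secreted Frizzled-related proteins bind Wnt proteins outside the cell and limit their access to receptors. Sfrp4 read 5.38, 5.58 and 5.68 in T1 to T3 and 5.14, 5.12 and 4.99 in W1 to W3. The groups did not overlap, and the difference was 0.46 ± 0.10 (SE; limma adjusted p = 0.0493), just under the threshold. The call was lost whichever array was left out (adjusted p from 0.0517 to 0.151), and without T3, the array with the highest value, the difference was 0.39. It was also lost with trended and robust variances (0.0502) and with the replicate block (0.122). Sfrp4 has a single probe set, whose mean of 5.31 lay just under the median of all probe sets.

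Sfrp1, an inhibitor known from the lens epithelium, read 11.78, 11.66 and 11.57 in T1 to T3 and 11.46, 11.89 and 11.86 in W1 to W3. The groups overlapped, and the difference was -0.065 (95% interval -0.37 to 0.24). Its 4 further probe sets differed by -0.23, -0.19, -0.049 and 0.047, and none was called. Sfrp5 read 6.21, 6.30 and 6.35, and 6.001, 5.95 and 6.21, a difference of 0.23 ± 0.10 (SE; adjusted p = 0.210) without overlap, and its second probe set differed by 0.19.

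Sfrp2 had the widest spread among transgenic arrays after Wnt4. It read 6.48, 7.12 and 7.62 in T1 to T3 and 7.51, 7.13 and 7.11 in W1 to W3. The transgenic arrays thus lay on both sides of the wild-type ones, and the difference of -0.18 turned to 0.12 without T1 and came to -0.45 without T3. T1 was the array with the lowest neural retina markers and T3 the array with high fibroblast markers. Their part in the spread of Sfrp2 was not tested.

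Some Dickkopf proteins, such as Dkk1, block the Lrp coreceptors, while Dkk3 is a divergent member. None of the 5 Dickkopf genes was called and 1 had an unadjusted p under 0.05 (limma), beside 4.55% and 22.4% of all genes. Dkk3 read 11.96, 12.01 and 11.87 in T1 to T3 and 12.21, 12.23 and 12.33 in W1 to W3. All transgenic arrays lay below all wild-type arrays, by -0.31 ± 0.08 (SE; adjusted p = 0.0830), and with trended and robust variances the gene was called (adjusted p = 0.0212). Its second probe set differed by -0.11. Dkk1 was dim, with its highest value of 5.39 in T3, and differed by 0.083; Dkk2, Dkk4 and Dkkl1 differed by -0.027 to 0.020.

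The Axin scaffolds hold the complex that marks beta-catenin for destruction, and Axin2 is itself a widely used readout of the pathway. Axin1 read 7.29, 7.13 and 7.30 in T1 to T3 and 7.39, 7.62 and 7.78 in W1 to W3. The groups did not overlap, at -0.36 ± 0.12 (SE; limma adjusted p = 0.126), and a second probe set differed by -0.23. With array weights Axin1 was called (adjusted p = 0.0479), while the other settings that kept all arrays gave 0.0574 to 0.173. Axin2 read 7.66, 7.90 and 7.64, and 7.51, 7.83 and 7.71. Its groups overlapped throughout, with a difference of 0.049 (95% interval -0.22 to 0.32).

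Tcf/Lef factors are the DNA-binding partners of beta-catenin, and Tcf7l1 is known mostly as a repressor. Tcf7l1 read 8.09, 8.09 and 8.08 in T1 to T3 and 7.79, 7.74 and 7.94 in W1 to W3. The transgenic arrays lay close together and above all wild-type arrays, at 0.27 ± 0.09 (SE; limma adjusted p = 0.125), and the second probe set differed by 0.25. Tcf7l2 differed by -0.081 (95% interval -0.37 to 0.20). Lef1, a target of the pathway as well as a factor of it, was dim and differed by 0.067 (-0.37 to 0.51).

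The array with the highest or lowest value was counted for each gene. T3 held the highest of the 6 values for 15 of the 52 genes (28.8%), against 17.5% of all genes, and W3 for 11 (21.2%, against 16.2%). W1 held the lowest for 14 (26.9%), near the 22.9% of all genes, and T2 for 10 (19.2%, against 14.7%). The genes in the next sentences were picked after their values were seen. In the probe set used for each gene, Wnt4, Wnt5a, Dkk1 and Rspo3 were highest in T3, as were 13 of 14 skin and cornea markers and 10 of 12 fibroblast markers. The summed linear level of the fibroblast markers was 13919 in T3 and 1251 to 1620 in the other arrays, with 0 of the 12 under the median of all probe sets on every array. By the mean over the 6 arrays, 5 of the 12 lay under that median. Wnt7a, Wnt7b, Rspo1 and Sfrp1 were lowest in W1.

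**Figure D4:**
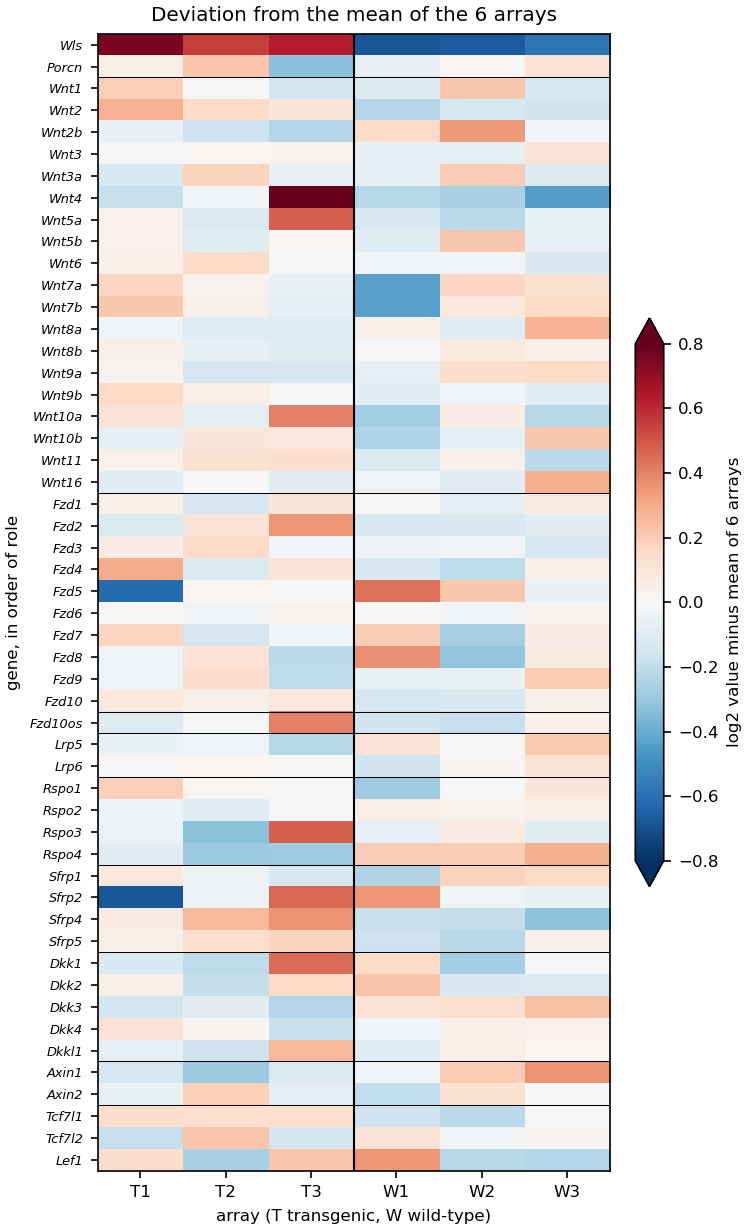
Each row is 1 of the 52 genes, in order of role with lines between roles, and each column an array; colour gives the log2 value minus the gene's mean over the 6 arrays, and arrows on the scale mark values past its ends. Wls is high in T1 to T3 and low in W1 to W3, while Wnt4 is high in T3, Fzd5 and Sfrp2 are low in T1, and Wnt7a and Wnt7b are low in W1.

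**Figure D5:**
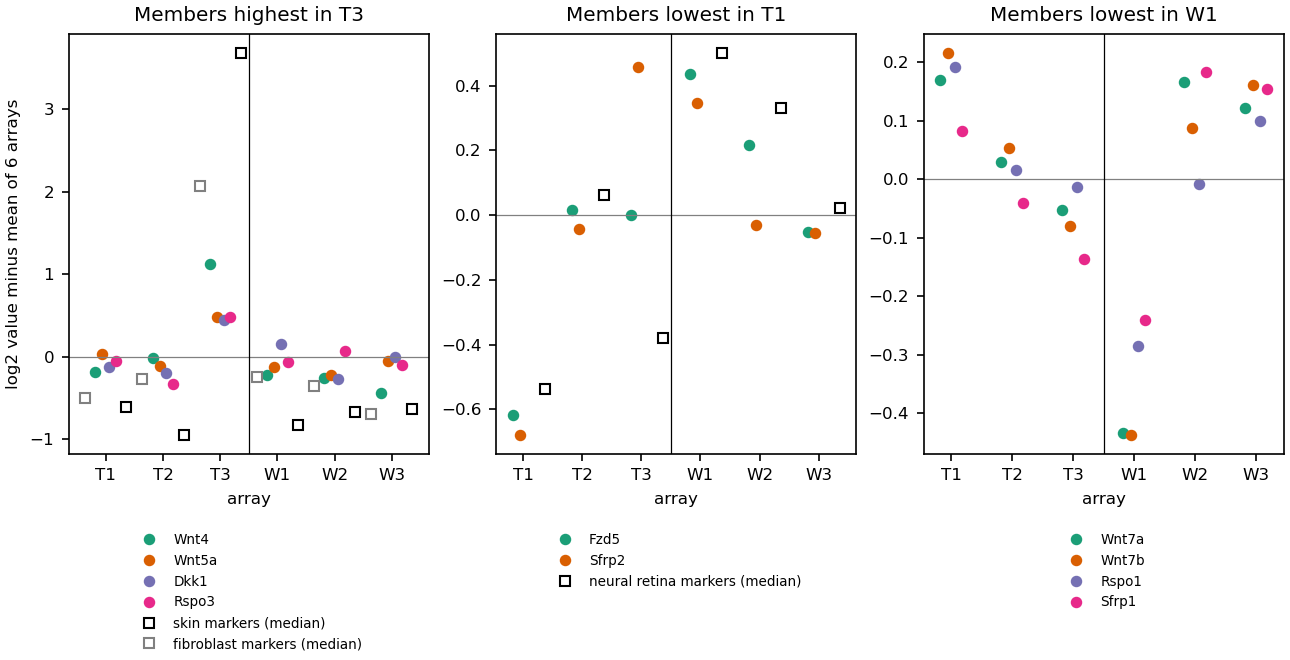
Log2 value minus the mean of the 6 arrays for genes with an extreme array (filled circles) and the median of marker lists (open squares), by array; the vertical scale differs between panels. Wnt4 reaches 6.77 in T3, where skin markers have a median of 9.56, and Fzd5 is at 7.54 in T1, where neural retina markers have their lowest median, 7.20.

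Outside the family, 4 lists held other genes of the pathway, 181 in all. Of these, 2 were called higher and 5 lower (3.87%), beside the background of 4.55%, and their median difference was 0.052. Among 35 genes of coreceptors, cofactors and extracellular regulators, Frzb, a further secreted Frizzled-related protein, fell by 0.82 and Kremen1, a Dickkopf receptor, rose by 0.47. Frzb read 5.14, 5.14 and 5.63 in T1 to T3 and 6.001, 6.09 and 6.29 in W1 to W3, and its dimmer probe set differed by -0.76. The call of Frzb held without T3 (adjusted p = 0.00481) and was lost without any other array (up to 0.104), and that of Kremen1 was lost without any array (0.0554 to 0.101). Dim further probe sets of Kremen1 differed by 0.24 and 0.070 and were not called (limma adjusted p = 0.283 and 0.714 over all probe sets). With the mean of its probe sets Kremen1 differed by 0.26 and was not called.

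Among 59 transducers, Cul1, a scaffold of ubiquitin ligases with many substrates besides beta-catenin, fell by 0.74 ± 0.09 (SE; limma adjusted p = 0.00386). Ctnnb1, Apc and the Dvl genes were among the 58 that were not called. Among 39 genes of planar polarity and other branches, Prickle1, a cytoplasmic planar polarity protein, fell most. It read 8.23, 7.98 and 8.11 in T1 to T3 and 9.35, 9.73 and 9.90 in W1 to W3, a difference of -1.55 ± 0.15 (SE; limma adjusted p = 0.00186) with groups far apart. The calls of Cul1 and Prickle1 held whichever array was left out. The 2 dim further probe sets of Prickle1 differed by 0.0057 and -0.090, and the mean of all 3 gave -0.55 (adjusted p = 0.0167).

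Among 48 genes often used as targets of beta-catenin, Ccn5 rose by 0.50, and Mitf, a pigment cell factor, and the adhesion gene Nrcam fell by 0.56 and 0.70. The other 45, with Myc and Ccnd1 among them, were not called, and the median difference was 0.071. The share called was 6.25%, against 4.55% of all genes. An unadjusted p under 0.05 (limma) was found for 15 (31.2%), 10 higher and 5 lower, against 22.4% of all genes. The groups did not overlap for 33.3%, against 28.8%, and the median size of a difference was 0.21, against 0.14. Of the 10 pigment epithelium and iris markers, 9 were above 0 in difference and none was called (limma; 1 had an unadjusted p under 0.05), and their part in the value of Mitf was not tested. Calls were lost without W2 for Nrcam (adjusted p = 0.0528), without T1, W1, W2 or W3 for Mitf (up to 0.0920) and without T1, T2, W1, W2 or W3 for Ccn5 (up to 0.0922).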

How the data were processed

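The authors deposited 1 log2 value per probe set and array, with no summary or normalization method given in the sources used here; the log2 scale was read from the range, 2.68 to 14.8. After 64 control probe sets were set aside, 45037 remained. Upper quartiles differed by 0.120, over a limit of 0.1, so quantile normalization was applied (limma 3.58.1, R 4.3.3). Gene symbols came from the platform annotation and were brought up to date with the RefSeq table of GRCm38.p6 (99.4% of 34945 probe sets with 1 symbol matched). Of several probe sets for a gene, the one whose mean across the 6 arrays was highest gave its value. Genotypes were compared with limma (lmFit, eBayes; Benjamini-Hochberg over all genes, threshold 0.05), an approach also tested on simulated data. In the simulated data, 24.4% of differences of 0.5 were called with the right sign, 88% of those of 1 and 99.6% of those of 2. A gene that was not called may thus still differ by a small step. Fewer genes were changed in the simulation than were called in the data, so the simulated shares need not hold for this comparison. The number of arrays limits the precision.

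Named with values were genes of the family that were called, had an unadjusted p under 0.05 or reached the median of all probe sets, and called genes of 4 further pathway lists. Wnt1, Wnt3, Wnt8a, Wnt8b, Wnt10b, Lrp5, Rspo2, Rspo3, Dkk1, Dkk2, Dkk4, Lef1, Ctnnb1, Apc, Dvl, Tle3, Myc and Ccnd1 are named outside this rule, after their values were seen. The genes and lists were chosen with earlier results of these data known. Alternatives changed normalization, dim probe sets, the value per gene, the variance model, the replicate block and the arrays kept.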

Additional observations from a re-analysis of the deposited data

How the results depend on the processing

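Wls was called in all 13 settings tried, though not when read from its dim probe set alone, and no called gene named here changed sign in any of them. With 1 array left out, 1 Wnt gene was called higher in each case (Wls) and 0 to 1 lower (limma; 2 to 4 lower at an unadjusted p under 0.05). Over all genes 70 to 249 were then higher and 156 to 385 lower, with fewer arrays in the test. Trended and robust variances gave 1 higher (Sfrp4 lost) and 2 lower Wnt genes (Dkk3 gained), array weights 3 higher (Wnt2 gained) and 2 lower (Axin1 gained), the mean of probe sets 3 higher (Wnt2 gained), and leaving out dim probe sets, Rspo4 among them, 0 lower (2 at an unadjusted p under 0.05). Array weights gave 599 higher and 790 lower over all genes. Centring on a common median gave 252 higher and 666 lower (27.5% higher), against 352 and 475 (42.6%) as reported, and the cause of the shift was not tested.

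Same-numbered arrays correlated at -0.052, 0.084 and 0.028 in their deviations from the group means, so the numbers were not taken as pairs. With the replicate block, 1 Wnt gene was higher (Wls, adjusted p = 0.0105) and 0 lower (4 at an unadjusted p under 0.05), and over all genes 69 were higher and 154 lower.

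Of the further lists, coreceptors and regulators had 1 call with the mean of probe sets or the replicate block and 0 to 1 with an array left out. Transducers had 2 on the values as deposited, with dim probe sets left out or with the mean of probe sets, 3 after common centring, with trended variances or with array weights, and 1 to 2 with an array left out. Planar polarity genes had 2 with trended variances or array weights. Target genes had 0 with the replicate block (limma; 9 higher and 4 lower at an unadjusted p under 0.05) and 0 to 4 with an array left out.

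Of the 40 Wnt genes that the naming rule gives, 19 changed the sign of a difference in some setting, 5 of them under another scaling; none of the 19 was called. Dim probe sets such as those of Rspo4, Wnt2 and Wnt2b carry background that limits their differences.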
